A study of Homo sapiens with 36 samples.

Results

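CCDC69, COA7, NXT2, CEP41, CCDC195, CLDN23, NIBAN3, DNAJC15 and PRELID3B are 9 of the 58302 gene IDs counted in each RNA-seq library of 3 mantle cell lymphoma lines treated with the KDM5 inhibitor GS716054. They were picked by symbol after earlier results of these data had shown lower counts with the inhibitor. Their treatment effects are therefore a description. Calls and adjusted p-values printed for these contrasts, or for differences between them, come from the fit over all genes and are not independent evidence. All 9 symbols matched a single Ensembl gene ID, and each gene lies on a different chromosome.

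JEKO, MINO and UPN-1 are established human lines of mantle cell lymphoma, a B cell tumour marked by cyclin D1. Cells of each line received DMSO, the vehicle, or GS716054 and were sampled after 24 h or 72 h. The 12 groups hold 3 biological replicates each, 36 libraries in all. No group carries a further treatment or genetic change per the labels, all lines grew in the same medium, and the inhibitor's dose is not stated there. Each line is a single line, so a difference between lines compares these 3 lines and not classes of tumour.

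Libraries held 8784815 to 14970876 reads in genes, with a median of 11926903, and a count of 3 corresponds to 0.2 to 0.341 CPM (the normalised read count, on 1 TMM scale over all 36 libraries). The cell type of the lines was checked on marker genes, which do not tell the lines from each other. All 6 B cell markers and both of CCND1 and SOX11 were at or above 1 CPM in every library. Summed over the fixed lists, myeloid markers stayed between 0.75 and 8.3 CPM, erythroid markers between 0 and 0.273 CPM, epithelial markers between 0.772 and 16.0 CPM, and fibroblast markers between 0.617 and 11.9 CPM. Of the 5 T cell markers, TRAC carried most of a sum of 35.0 to 176 CPM, and CD2 was at 0 in every library. In bulk RNA, fewer cells that express a gene and less RNA per cell cannot be told apart.

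KDM5 enzymes remove methyl groups from lysine 4 of histone H3, a mark found at the promoters of active genes, and they act as transcriptional repressors in many settings. Inhibitors of these enzymes are known to raise that mark. The 9 genes do not form 1 pathway. CCDC69 is a coiled-coil protein of the central spindle, and CEP41 is a centrosomal protein needed for glutamylation of tubulin. COA7, DNAJC15 and PRELID3B act in mitochondria, in assembly of cytochrome c oxidase, in the inner membrane as a co-chaperone of protein import, and in lipid transfer. NXT2 is a partner of the mRNA export receptor NXF1, NIBAN3 is a Niban family protein found mainly in B cells, and CLDN23 is a claudin, the protein family of tight junctions. CCDC195 is annotated as a coiled-coil protein.

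RefSeq promoter windows (GRCh38.p14, 250 bases before to 50 bases after a start) were found for 8 of the 9 genes, 12 windows in all. The 4 stretches printed here are the 120 bases just before the annotated start of those genes whose RefSeq and GENCODE starts lie within 1 base of each other. They show 2 CpG-rich starts (CCDC69 and COA7) and 2 CpG-poor ones (CCDC195 and NIBAN3). Capitals mark CCGCCC or its reverse complement GGGCGG (the GC box) and CACGTG (the E-box).
CCDC69, chr5:151224094-151224213, minus strand: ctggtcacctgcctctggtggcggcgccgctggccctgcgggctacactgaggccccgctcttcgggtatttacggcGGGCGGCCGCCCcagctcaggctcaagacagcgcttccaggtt
COA7, chr1:52698348-52698467, minus strand: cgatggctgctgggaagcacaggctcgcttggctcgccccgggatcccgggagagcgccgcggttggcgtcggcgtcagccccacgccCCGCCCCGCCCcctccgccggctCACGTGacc
NIBAN3, chr19:17523181-17523300, plus strand: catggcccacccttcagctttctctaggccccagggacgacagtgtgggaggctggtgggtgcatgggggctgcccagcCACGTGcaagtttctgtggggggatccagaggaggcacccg
CCDC195, chr2:224716366-224716485, minus strand: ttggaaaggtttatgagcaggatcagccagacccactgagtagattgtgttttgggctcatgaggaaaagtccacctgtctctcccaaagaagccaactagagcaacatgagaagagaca

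Over the whole 300-base window, the observed over expected CpG ratio was 0.86 for COA7 and 0.78 for CCDC69, against 0.25 for the first window of NIBAN3, 0.13 for CCDC195 and a median of 0.58 over all 35116 windows. The ratio was highest for PRELID3B (0.96) and DNAJC15 (0.89), which were lower without overlap in JEKO alone, so it did not set apart the members lower in every line. It was 0.75 for CEP41 and 0.58 to 0.65 for the 3 windows of NXT2. Both strands were searched for 5 motifs. CCGCCC was found for 6 of the 8 genes, beside 45.0% of all windows. CACGTG was found for COA7, NIBAN3 and NXT2, beside 7.3% of all windows. CCAAT was found for CEP41 and NXT2 (34.6% of all windows), TATAAA for DNAJC15 (11.5%) and GCGCATGC for none (3.1%). Genes with several windows had more chances to hold a motif, and a match is no evidence of binding.

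CCDC69 (ENSG00000198624, chr5:151181052-151224093, minus strand, GENCODE v44 on GRCh38) was lower in every treated library than in every DMSO library of the same line and time, in all 6 comparisons. In JEKO at 24 h it was at 326, 370 and 345 CPM with DMSO and at 176, 171 and 145 CPM with GS716054. At 72 h the JEKO values were 204, 259 and 276 CPM against 115, 153 and 145 CPM. In MINO at 24 h they were 485, 385 and 510 CPM against 187, 157 and 199 CPM. This was the lowest treated share of the 6, with a treated mean at 39.4% of the DMSO mean. MINO at 72 h gave 373, 410 and 397 CPM with DMSO and 169, 215 and 181 CPM with the inhibitor. UPN-1 gave 215, 203 and 230 CPM against 147, 127 and 156 CPM at 24 h. At 72 h the UPN-1 values were 140, 102 and 185 CPM against 86.1, 72.8 and 101 CPM, where the lowest DMSO library lay just above the highest treated one. The log2 fold change, GS716054 minus DMSO, was −1.10 ± 0.16 (SE) in JEKO, −1.37 ± 0.149 in MINO and, for UPN-1, −0.60 ± 0.176 at 24 h. At 72 h it was −0.83 ± 0.16, −1.08 ± 0.148 and −0.70 ± 0.177.

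Few genes separated the libraries in all 6 comparisons. Of 13791 genes tested in all lines, 2 had every treated library below every DMSO library each time (0.0145%), CCDC69 and GRK2. GRK2, a kinase of G protein-coupled receptors, was named after its values were seen. Its log2 fold changes ran from −0.68 to −0.33, smaller in size than those of CCDC69 in each comparison.

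CEP41 (ENSG00000106477, chr7:130393771-130442433, minus strand) was lower in all 3 lines as well, from a baseline that was lowest in JEKO. JEKO at 24 h gave 20.8, 19.3 and 19.3 CPM with DMSO and 9.14, 9.56 and 8.68 CPM with GS716054. MINO at 24 h gave 82.7, 72.9 and 82.1 CPM against 46.9, 44.7 and 44.2 CPM. UPN-1 at 24 h gave 57.4, 61.4 and 58.2 CPM against 51.8, 53.8 and 48.2 CPM. The treated and DMSO libraries did not touch in any line at 24 h, but the gap was narrow in UPN-1. At 72 h the JEKO values were 10.6, 16.7 and 18.6 CPM against 6.33, 9.11 and 11.4 CPM, and here the groups overlapped. MINO gave 68.1, 51.8 and 67.9 CPM against 49.7, 29.2 and 48.7 CPM, and UPN-1 gave 56.8, 57.7 and 62.3 CPM against 47.1, 46.1 and 47.1 CPM. In JEKO and MINO at 72 h the lowest DMSO library and the lowest treated library carried the same replicate number. The log2 fold changes at 24 h were −1.13 ± 0.232 (SE) in JEKO, −0.84 ± 0.189 in MINO and, for UPN-1, −0.21 ± 0.0995, and at 72 h −0.77 ± 0.23, −0.57 ± 0.189 and −0.32 ± 0.099.

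Among the mitochondrial genes, COA7 (ENSG00000162377, chr1:52684449-52698347, minus strand) was lower in every treated library of all 3 lines at 24 h. JEKO gave 29.0, 31.1 and 36.3 CPM with DMSO and 13.8, 11.8 and 12.7 CPM with GS716054, a treated mean at 39.8% of the DMSO mean. MINO gave 51.8, 44.2 and 54.5 CPM against 25.1, 28.9 and 31.8 CPM. UPN-1 gave 45.1, 48.3 and 47.2 CPM against 35.3, 38.0 and 34.7 CPM. The difference was smaller at 72 h in each line. JEKO then gave 17.7, 20.9 and 17.2 CPM against 15.9, 9.11 and 14.3 CPM, without overlap. MINO gave 39.2, 26.2 and 39.8 CPM against 31.0, 17 and 32.5 CPM, and UPN-1 37.0, 27.5 and 45.5 CPM against 40.1, 29.6 and 35.5 CPM, both with overlap. The log2 fold changes were −1.34 ± 0.197 (SE), −0.84 ± 0.235 and −0.39 ± 0.159 at 24 h in JEKO, MINO and UPN-1, and −0.50 ± 0.196, −0.41 ± 0.235 and −0.05 ± 0.159 at 72 h.

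DNAJC15 (ENSG00000120675, chr13:43023203-43114213, plus strand) was lower without overlap in JEKO, and the groups overlapped in the other lines. In JEKO it went from 52.2, 57.9 and 54.5 CPM with DMSO to 31.7, 22.9 and 36.2 CPM with the inhibitor at 24 h. At 72 h it was at 42.3, 38.6 and 40.7 CPM against 32.9, 28.9 and 35.8 CPM. In MINO the libraries spanned 57.1 to 67.6 CPM at 24 h and 43.4 to 62.7 CPM at 72 h, and in UPN-1 87.9 to 126 CPM over both times, with treated and DMSO libraries mixed. The log2 fold change was −0.87 ± 0.163 (SE) in JEKO at 24 h and −0.31 ± 0.162 at 72 h, and between −0.13 and 0.03 in the 4 comparisons of MINO and UPN-1.

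PRELID3B (ENSG00000101166, chr20:59033145-59042809, minus strand) also differed without overlap in JEKO, at 139, 151 and 142 CPM with DMSO and 85.1, 96.0 and 93.0 CPM with GS716054 at 24 h. The JEKO values at 72 h were 106, 102 and 100 CPM against 66.4, 67.5 and 70.7 CPM. Every treated library in JEKO was below 100 CPM and every DMSO library at or above it. In UPN-1 the order was the opposite at 24 h, with 206, 201 and 191 CPM with DMSO and 254, 228 and 214 CPM with the inhibitor. In MINO the groups overlapped at both times, within 145 to 167 CPM at 24 h and 102 to 138 CPM at 72 h. The log2 fold changes were −0.67 ± 0.114 (SE) and −0.59 ± 0.114 in JEKO at 24 h and 72 h, −0.10 ± 0.133 and −0.07 ± 0.133 in MINO, and 0.21 ± 0.144 and 0.17 ± 0.144 in UPN-1. In the annotation, 14.1% of its exon bases lie under exons of an opposite-strand lncRNA whose ID is not among those counted, and strand use in counting was not given in the sources used here. Its 10 processed pseudogenes held at most 0.205% of its count in any library.

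NXT2 (ENSG00000101888, chrX:109535781-109544698, plus strand) was lower in JEKO, and its groups overlapped in MINO and UPN-1. In JEKO at 24 h it was at 159, 143 and 148 CPM with DMSO and 64.5, 66.9 and 64.8 CPM with GS716054, a treated mean at 43.6% of the DMSO mean. At 72 h the JEKO DMSO libraries had themselves come down to 43.8, 83.1 and 75.0 CPM, and the treated ones, at 37.7, 44.2 and 53.6 CPM, overlapped them. In MINO all 12 libraries lay between 31.2 and 49.3 CPM, and in UPN-1 between 17.5 and 29.4 CPM, with treated and DMSO libraries mixed at each time. The log2 fold change was −1.21 ± 0.2 (SE) in JEKO at 24 h and −0.57 ± 0.199 at 72 h. In the other lines it ran from 0.02 to 0.22.

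NIBAN3 (ENSG00000167483, chr19:17523301-17553839, plus strand) was lower in JEKO and UPN-1, mostly at 72 h. In JEKO at 72 h it was at 124, 154 and 136 CPM with DMSO and 43.5, 40.8 and 58.8 CPM with GS716054. In UPN-1 at 72 h it was at 133, 126 and 92.0 CPM against 61.1, 40.3 and 34.1 CPM. Treated means were 34.6% and 38.6% of the DMSO means, and neither pair of groups overlapped. At 24 h JEKO gave 105, 92.1 and 96.7 CPM against 78.1, 65.5 and 69.1 CPM, without overlap, and UPN-1 gave 67.3, 65.7 and 36.3 CPM against 51.0, 53.7 and 28.0 CPM, with overlap. MINO carried far more of this RNA, from 637 to 1308 CPM, and its treated and DMSO libraries overlapped at both times. The log2 fold change at 72 h was −1.52 ± 0.16 (SE) in JEKO, −1.36 ± 0.272 in UPN-1 and −0.37 ± 0.267 in MINO. At 24 h it was −0.48 ± 0.157, −0.36 ± 0.274 and 0.03 ± 0.267.

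CLDN23 (ENSG00000253958, chr8:8701937-8704096, plus strand) was well expressed only in JEKO among these lines. There it was at 79.7, 69.5 and 79.9 CPM with DMSO and 47.4, 36.3 and 42.5 CPM with the inhibitor at 24 h. At 72 h it was at 75.7, 75.0 and 76.0 CPM against 45.9, 37.1 and 45.0 CPM. Treated means were 55.1% and 56.5% of the DMSO means, with no overlap at either time. MINO libraries held 1.37 to 11.2 CPM and UPN-1 libraries 0.25 to 1.43 CPM, the latter from 3 to 18 reads each, so that a difference of the size seen in JEKO was not detectable there. The log2 fold change was −0.87 ± 0.14 (SE) and −0.82 ± 0.139 in JEKO, while its standard error in MINO and UPN-1 was 0.54 to 0.634.

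CCDC195 (ENSG00000283428, chr2:224703764-224716365, minus strand) had the largest log2 fold change of the 9 genes, in JEKO at 72 h. It was at 11.3, 10.7 and 12.2 CPM with DMSO and 1.12, 1.59 and 1.65 CPM with GS716054, which were 156, 135 and 165 reads against 15, 22 and 24 reads. The treated mean was 12.8% of the DMSO mean, and the log2 fold change was −2.96 ± 0.244 (SE). At 24 h it was at 6.8, 9.41 and 10.6 CPM against 4.47, 4.04 and 4.04 CPM, a log2 fold change of −1.11 ± 0.224. MINO libraries held 0 to 3 reads of this gene and UPN-1 libraries 0 to 10, and it was not tested in either line. Whether the inhibitor lowers it there was therefore not detectable at this depth.

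**Figure D1:**
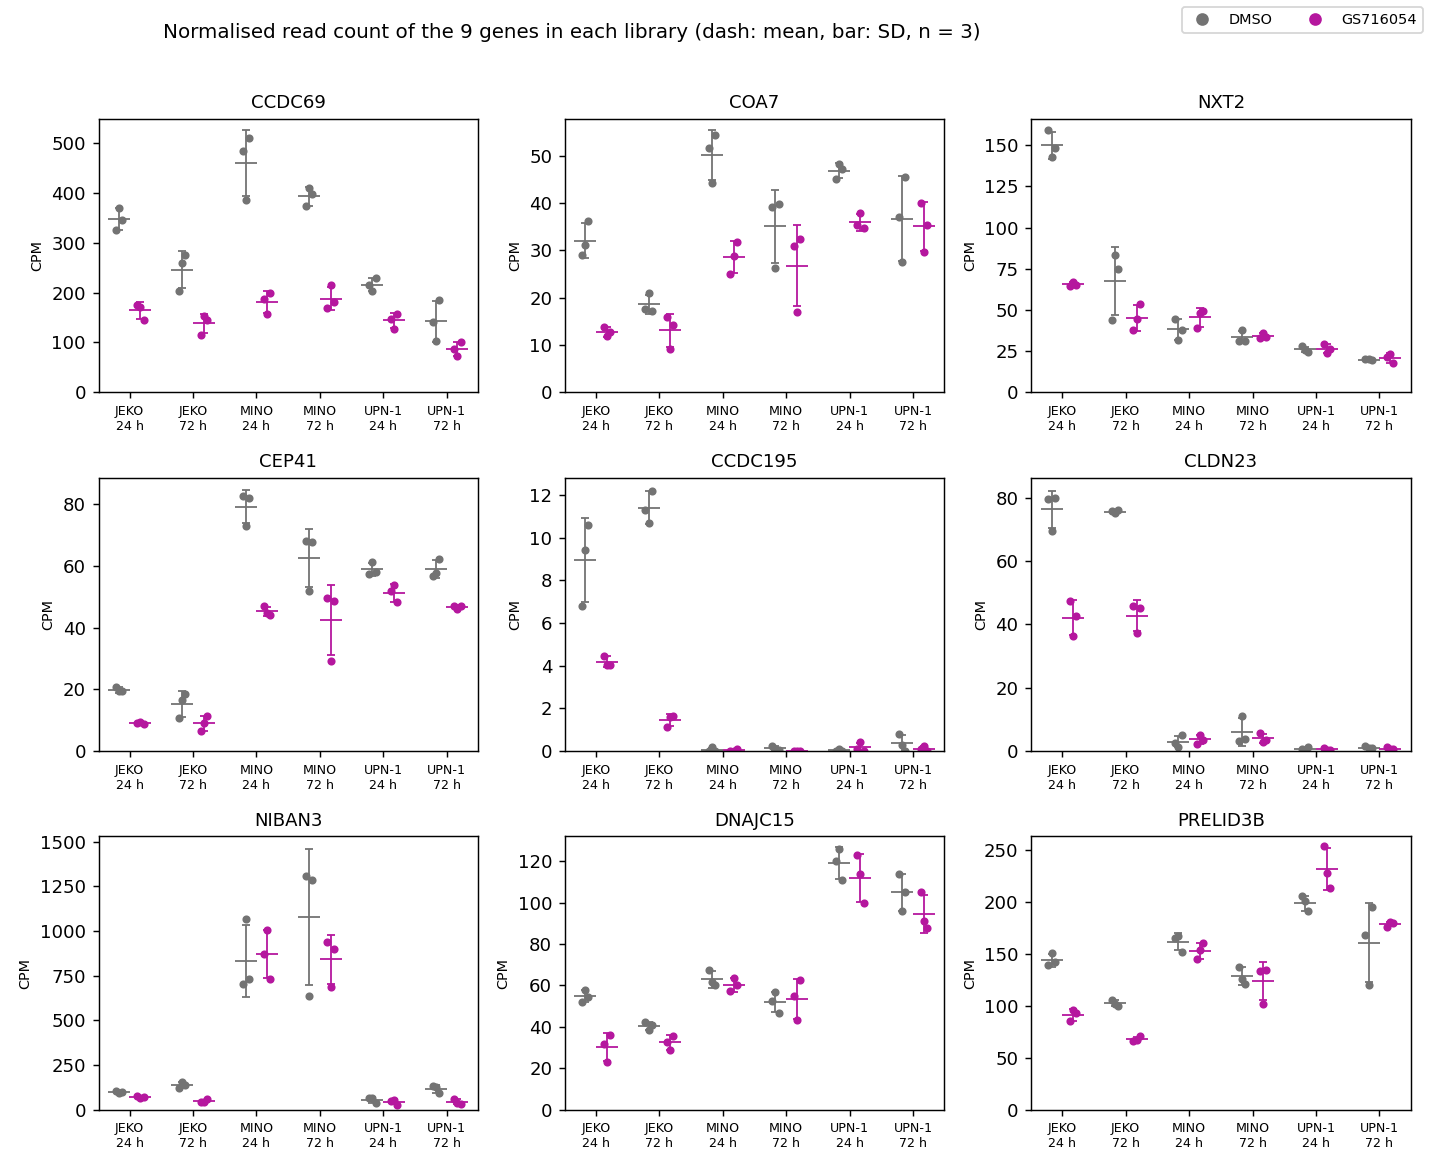
Normalised read count (CPM, linear axes from 0) of the 9 genes in each of the 36 libraries, by line and time; points are libraries, dashes means and bars the SD over 3 libraries. CCDC69 is lower with GS716054 in all 6 comparisons, NXT2 at 24 h is lower in JEKO (a mean of 65.4 against 150 CPM) and overlaps in the other lines, and CCDC195 and CLDN23 have appreciable counts only in JEKO.

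A gene was called where the Benjamini-Hochberg adjusted p of edgeR's quasi-likelihood test, over all genes tested, was under 0.05. The counts of called members describe the choice of genes and nothing is read from them. Counts at an unadjusted p under 0.05, here and below, have no share of all genes beside them, and nothing is read from those either. In JEKO at 24 h, 2 of 9 were called lower (CCDC69 and COA7), where 0.018% of all genes were, and both calls were lost without any 1 of the 6 libraries. At 72 h, 5 of 9 were called lower (CCDC69, NIBAN3, CCDC195, CLDN23 and PRELID3B), where 0.0959% were, and 2 to 3 without single libraries. In MINO, 2 of 8 tested were called lower at 24 h (CCDC69 and CEP41, against 0.952% of genes) and CCDC69 alone at 72 h (2.05%), and CEP41 was not called without any 1 of its 6 libraries. In UPN-1, none of 8 was called at 24 h (0.0197%), with 3 at an unadjusted p under 0.05 and 0 by DESeq2, and NIBAN3 alone at 72 h (0.059%). Its call there was lost in 4 of the 6 fits without a single library (DMSO replicate 1 or 2, treated replicate 2 or 3), with an adjusted p of up to 0.199. Treated libraries lay wholly below DMSO libraries for 9 and 7 members in JEKO at 24 h and 72 h, for 3 and 2 tested members in MINO, and for 3 UPN-1 members at each time. Over all genes these shares were 5.51% and 4.81% in JEKO, 15.2% and 10% in MINO, and 6.96% and 3.79% in UPN-1.

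Same-numbered DMSO and treated libraries varied together in 5 of the 6 comparisons, and a fit with the replicate number as a block within each time gave more calls. With this block 7 members were called lower in JEKO at 72 h (all but COA7 and DNAJC15, where 1.44% of genes were). CCDC69, CEP41 and COA7 were called lower in MINO at both times (7.36% and 9.8% of genes). In MINO at 72 h some libraries of different numbers also varied together, with r up to 0.33, so the block is less certain there. In UPN-1, CCDC69, COA7 and NIBAN3 were called lower at 24 h (0.577%) and CCDC69, CEP41 and NIBAN3 at 72 h (3.29%). CCDC69 is thus the 1 member called lower with the block in each of the 5 comparisons.

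**Figure D2:**
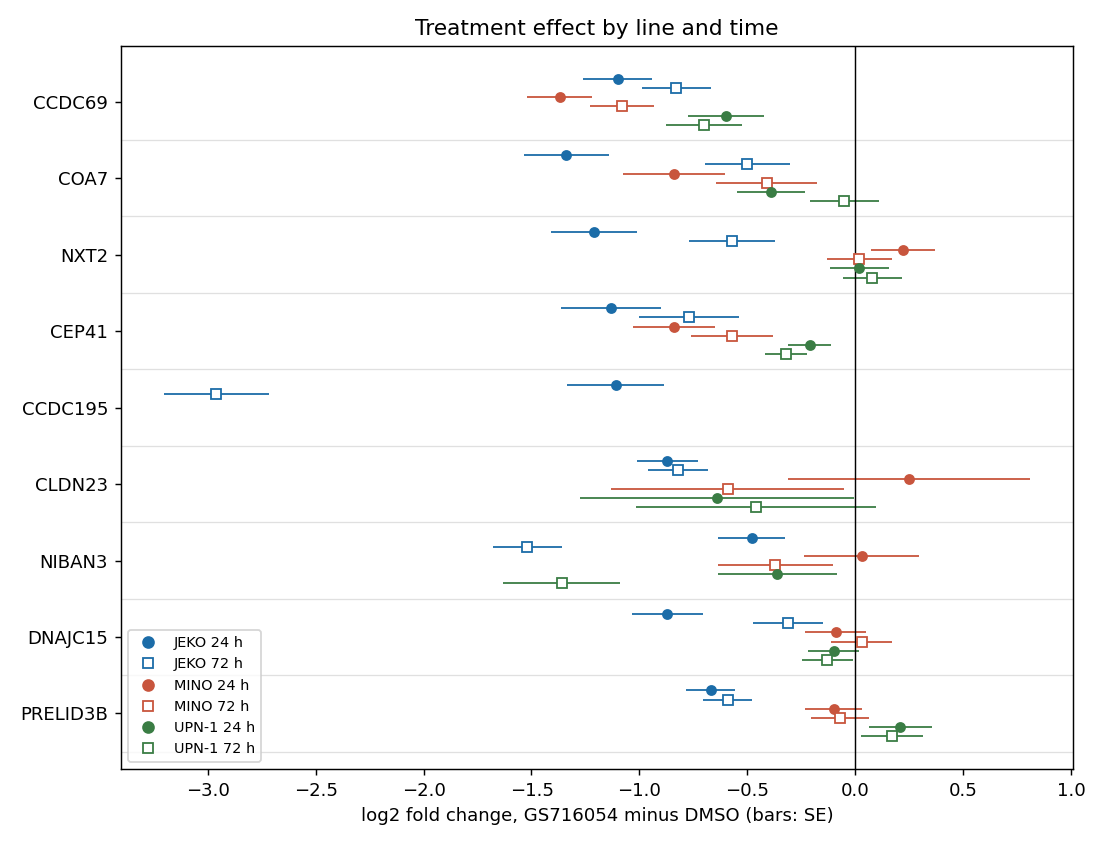
Log2 fold change (GS716054 minus DMSO, bars the SE of the fit) of each gene in the 3 lines at 24 h (filled circles) and 72 h (open squares). CCDC69, CEP41 and COA7 lie left of 0 in all 6 comparisons, COA7 only just in UPN-1 at 72 h (−0.05). Of all genes tested in all lines, 8.62% do so. NXT2, DNAJC15 and PRELID3B lie furthest left in JEKO and nearer to 0, on either side, in the other lines. CCDC195 was tested in JEKO only.

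Shared and line-specific differences were set apart in 1 fit of all 36 libraries, by testing whether the treatment effect differed among the 3 lines. This test uses the contrasts that the genes were chosen on and is not independent of that choice. At 24 h, NXT2 passed it (adjusted p = 0.00312, edgeR quasi-likelihood test), where 0.106% of all genes did, with effects that differed by up to 1.45 on the log2 scale. Its effect in MINO minus that in JEKO was 1.45 ± 0.234 (SE, adjusted p = 0.00372, 0.0945% of genes), and in UPN-1 minus JEKO 1.22 ± 0.236 (adjusted p = 0.214). PRELID3B and DNAJC15 had effects that spanned 0.87 and 0.80 among the lines at 24 h but did not pass (adjusted p = 0.0605 and 0.0815). CCDC69, COA7 and CEP41 spanned 0.76, 0.95 and 0.91 with adjusted p of 0.387, 0.373 and 0.231. With the block within each time these 5 passed as well (5.74% of genes), at adjusted p of 0.00216 for CCDC69, 0.0186 for COA7, 0.00064 for CEP41, 0.00236 for PRELID3B and 0.00773 for DNAJC15. For MINO minus JEKO with this block, NXT2 (adjusted p = 5.29e-05), DNAJC15 (0.00939) and PRELID3B (0.0261) passed, where 5.28% of genes did. For UPN-1 minus JEKO, NXT2 (0.0111), CEP41 (0.0126) and PRELID3B (0.0248) passed, where 0.0334% of genes did. JEKO at 24 h is the comparison that missed the pairing criterion, by 1 pair. Between UPN-1 and MINO, which met it, the blocked effect differed by 0.75 for CCDC69 (adjusted p = 0.000978) and 0.60 for CEP41 (0.00598), where 6.2% of genes passed. A p that misses the threshold does not show that effects are alike. JEKO and MINO had log2 fold changes of larger size than UPN-1 for CCDC69, COA7 and CEP41 at 24 h.

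At 72 h no member passed the test of a difference among lines, where 1.01% of genes did. At an unadjusted p under 0.05, PRELID3B, NIBAN3 and NXT2 would have passed it, and by DESeq2 PRELID3B did. With the block within each time, NIBAN3 (adjusted p = 0.00011), PRELID3B (0.00463) and NXT2 (0.042) passed, where 9.78% of genes did. NIBAN3 then differed between MINO and JEKO by 1.24 and between UPN-1 and MINO by −1.10, while UPN-1 minus JEKO was 0.14.

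Averaged over the 3 lines, the log2 effect at 24 h was −1.01 ± 0.0976 (SE) for CCDC69, −0.84 ± 0.119 for COA7, −0.71 ± 0.103 for CEP41 and −0.34 ± 0.0803 for DNAJC15. These 4 were called lower, where 0.284% of all genes were. The call of DNAJC15 was lost in 12 of the 18 fits without a single library, spread over all 3 lines (adjusted p up to 0.0841). At 72 h the 4 called lower, where 1.66% of genes were, were CCDC69 at −0.87 ± 0.0975, NIBAN3 at −1.09 ± 0.152, CEP41 at −0.56 ± 0.103 and CCDC195 at −2.80 ± 0.684. The call of CCDC195 was lost without DMSO replicate 1 of MINO or of UPN-1 (adjusted p up to 0.0806). The averages for DNAJC15, NIBAN3 and CCDC195 include lines in which the gene showed no clear difference or almost no reads.

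The effect at 72 h minus that at 24 h, built from the same contrasts, was not called for any member in any line by edgeR, and over all genes 0.0% were called in JEKO and UPN-1 and 0.0133% in MINO. At an unadjusted p under 0.05, 5 members in JEKO, 0 in MINO and NIBAN3 in UPN-1 would have passed. The share of all genes at that unadjusted p is not given here, so nothing is read from this count. In JEKO the effect was larger in size at 72 h for CCDC195, by −1.85 ± 0.327 (SE), and for NIBAN3, by −1.05 ± 0.222. It was smaller at 72 h for COA7 (0.84 ± 0.276), NXT2 (0.64 ± 0.28) and DNAJC15 (0.56 ± 0.229). NIBAN3 in UPN-1 differed by −1.0 ± 0.384, and with the block by −1.01 (adjusted p = 0.00121), where 0.0459% of genes were called. DESeq2 called CCDC195 in JEKO.

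Several of these genes changed with time in culture without the inhibitor. The DMSO libraries of this comparison also serve the treatment comparisons, so the 2 kinds of difference are not independent. In JEKO, 5 of 9 members were called between DMSO at 72 h and at 24 h, where 31.7% of all genes were. NXT2 fell by 1.16 on the log2 scale (adjusted p = 0.00163, edgeR), with 3 of 3 libraries at 72 h below all at 24 h. COA7 fell by 0.79 (adjusted p = 0.00862), PRELID3B fell by 0.48 (0.00694) and CCDC69 fell by 0.50 (0.0289), while NIBAN3 rose by 0.50 (0.0276). The calls of NIBAN3 and CCDC69 were lost without 3 and 5, respectively, of the 6 single libraries (adjusted p up to 0.0972 and 0.115). For NXT2 in JEKO, the DMSO mean at 72 h, 67.3 CPM, was close to the treated mean at 24 h, 65.4 CPM.

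In MINO no member was called between the times in DMSO, where 0.0932% of genes were, and none by DESeq2. At an unadjusted p under 0.05, COA7 (−0.51) and PRELID3B (−0.33) would have passed. In UPN-1 none was called, where 1.47% of genes were. NIBAN3 there was 1.07 ± 0.271 (SE) higher at 72 h (adjusted p = 0.0536), CCDC69 was at −0.59 ± 0.176 (0.0785) and NXT2 at −0.38 ± 0.137 (0.117). COA7 was a further UPN-1 gene with an unadjusted p under 0.05 (−0.34 ± 0.158), and DESeq2 called NIBAN3 and CCDC69. Without the third DMSO replicate at 72 h, 4 members were called in UPN-1. NIBAN3 thus had a higher mean with DMSO at 72 h than at 24 h in each line, and a lower treated mean at 72 h than at 24 h in JEKO and MINO (70.9 to 47.7 CPM and 871 to 841 CPM), with 44.2 and 45.2 CPM in UPN-1. In MINO these differences lay within the spread. The DMSO libraries were at 705, 1066 and 730 CPM at 24 h and 1308, 637 and 1286 CPM at 72 h (adjusted p = 0.392, edgeR). The treated means there had an SD of 136 CPM at each time.

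**Figure D3:**
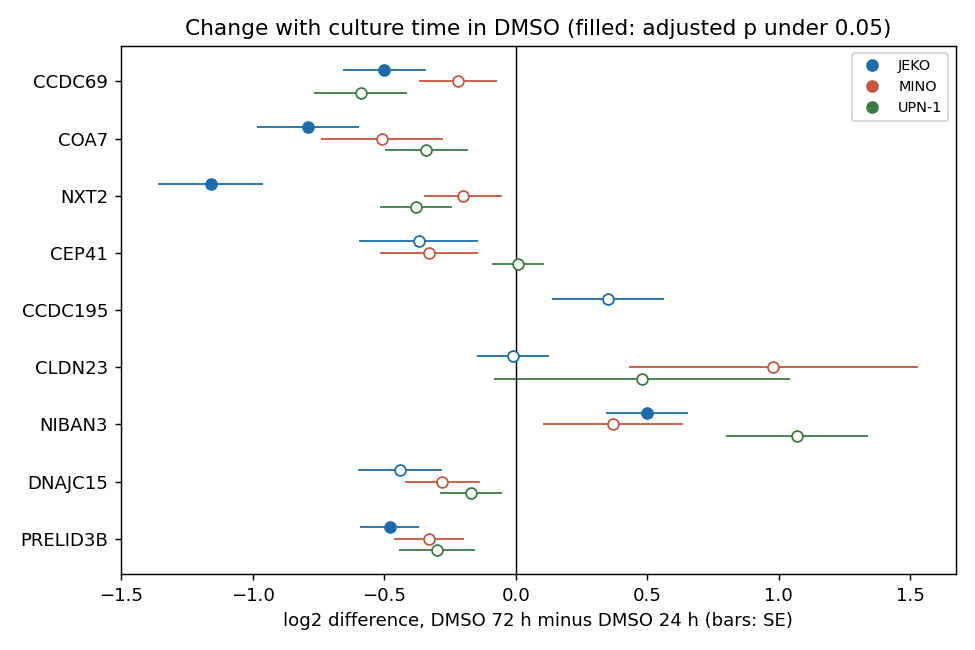
Log2 difference between DMSO at 72 h and at 24 h (bars the SE) for each gene in each line; filled points passed an adjusted p under 0.05. NXT2 in JEKO lies at −1.16, and NIBAN3 is the only gene of the 9 that was called higher, in JEKO.

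Baseline levels were compared between lines in DMSO at 24 h, a contrast that the choice of genes did not rest on directly, although it uses the same DMSO libraries. Of the 9 genes, 7 differed between MINO and JEKO, 9 between UPN-1 and JEKO and 7 between UPN-1 and MINO, where 48.0%, 44.9% and 44.4% of all genes did. NXT2 was highest in JEKO, with a log2 difference MINO minus JEKO of −1.98 ± 0.169 (SE, adjusted p = 3.03e-11, edgeR) and UPN-1 minus JEKO of −2.53 ± 0.174 (2.78e-13). CEP41 was lowest in JEKO, with MINO minus JEKO at 2.00 ± 0.181 (adjusted p = 9.38e-11). NIBAN3 was highest in MINO, at 3.09 ± 0.279 above JEKO (9.17e-11), and UPN-1 minus MINO was −3.89 ± 0.29 (1.42e-12). These calls of NXT2, CEP41 and NIBAN3 held without any 1 library.

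For CCDC69 the order was MINO, JEKO and UPN-1, with means of 460 ± 66.3, 347 ± 21.8 and 216 ± 13.5 CPM (SD, n = 3 each). The first step was 0.41 ± 0.167 (SE, adjusted p = 0.0447) and was lost without 5 of the 6 single libraries. The step from MINO to UPN-1 was −1.09 ± 0.169 (adjusted p = 3.1e-06). COA7 had its lowest mean in JEKO, with MINO minus JEKO at 0.64 ± 0.203 (adjusted p = 0.0094) and UPN-1 minus JEKO at 0.54 ± 0.203 (0.0286). The latter call was lost without 4 of the 6 single libraries (adjusted p up to 0.103). MINO and UPN-1 did not differ in COA7 beyond their spread (−0.10 ± 0.202, adjusted p = 0.737). DNAJC15 was highest in UPN-1, 0.92 ± 0.139 above MINO (2.07e-06), while MINO and JEKO did not differ beyond their spread (0.20 ± 0.139, adjusted p = 0.248). PRELID3B followed the same order of means, 199, 162 and 144 CPM, with UPN-1 above JEKO by 0.47 ± 0.126 (0.00272) and MINO and JEKO not apart beyond their spread (0.17 ± 0.126, adjusted p = 0.285). CLDN23 was at means of 76.3 CPM in JEKO, 2.99 CPM in MINO and, for UPN-1, 0.731 CPM. CCDC195 was at 8.94 CPM in JEKO and at 2 reads and 1 read in all 3 MINO and UPN-1 libraries together.

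Genes beside the members on the chromosome were compared in the same way. For each member, the nearest protein-coding gene on both sides and any overlapping gene were taken from the annotation, 19 counted genes in all, of which 14 were tested. None was called lower in any of the 6 comparisons, by edgeR, by DESeq2 or at an unadjusted p under 0.05. Of the 84 gene and comparison pairs tested, 14 had an unadjusted p under 0.05, all of them higher, with 3 and 5 in MINO at 24 h and 72 h. No count at an unadjusted p under 0.05 in this text has the share of all genes beside it, so nothing is read from such counts. Called higher without the block were 3 pairs, in MINO. DOCK10, beside CCDC195, was higher at 24 h (0.64 ± 0.146 SE, adjusted p = 0.0386, edgeR), where 2.39% of genes were called in either direction. EPSTI1, beside DNAJC15, was higher at 72 h (4.13 ± 0.548, adjusted p = 0.00156), as was ZNF831, beside PRELID3B (1.57 ± 0.381, adjusted p = 0.0308), where 5.56% of genes were called. DOCK10 was not called without any 1 of its 6 libraries. Without single libraries the number called ran from 1 to 4 in MINO at 72 h (1 without DMSO replicate 1 or 3, 4 without DMSO replicate 2) and from 0 to 1 in UPN-1 at 72 h (1 without DMSO replicate 2). DESeq2 called 6 pairs, those 3, ANXA6 in MINO at 24 h, and ANXA6 and MEST in UPN-1 at 72 h. With the block 13 pairs were called higher and none lower. These were 1 in JEKO at 72 h (1.89% of all genes were called higher), 3 and 5 in MINO at 24 h and 72 h (8.43% and 10.4%), and 1 and 3 in UPN-1 (0.918% and 4.18%). They include MEST, beside CEP41, in UPN-1 at both times (0.27 and 0.40, adjusted p = 0.0297 and 0.000299), PRAG1, beside CLDN23, in MINO at both times (0.49 and 0.54, 0.0191 and 0.0119), and SHISAL2A, beside COA7, in UPN-1 at 72 h (2.25, 0.013). SHISAL2A had only 2, 9 and 1 reads with DMSO there, against 16, 34 and 13 with GS716054. EPSTI1 in MINO at 72 h rose from 0.923, 0.75 and 1.44 CPM to 26.9, 18.6 and 11.6 CPM, while DNAJC15 differed by 0.03 ± 0.142.

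ANXA6, an annexin gene on the same strand 23236 bases from CCDC69, had a positive log2 fold change in all 6 comparisons, from 0.25 to 0.73, where that of CCDC69 was negative. In MINO at 24 h it was at 198, 152 and 211 CPM with DMSO and 322, 309 and 318 CPM with GS716054. In UPN-1 at 72 h it was at 33.3, 25.5 and 22.2 CPM against 52.2, 39.9 and 38.2 CPM. The groups did not overlap in either case. It was not called without the block (adjusted p = 0.0767 and 0.108), and with it was called higher in JEKO at 72 h (0.022), MINO at 24 h and 72 h (0.00263 and 0.00685) and UPN-1 at 72 h (3.55e-05). GM2A, whose body overlaps that of CCDC69 on the opposite strand without shared exon bases, lay between −0.20 and 0.20. The genes closest to a member, ATP5F1E at 799 bases from PRELID3B and COLGALT1 and PGLS at 1809 and 2012 bases from NIBAN3, were not called in any comparison. With the block ATP5F1E was called higher in MINO at 72 h (0.51, adjusted p = 0.0347).

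**Figure D4:**
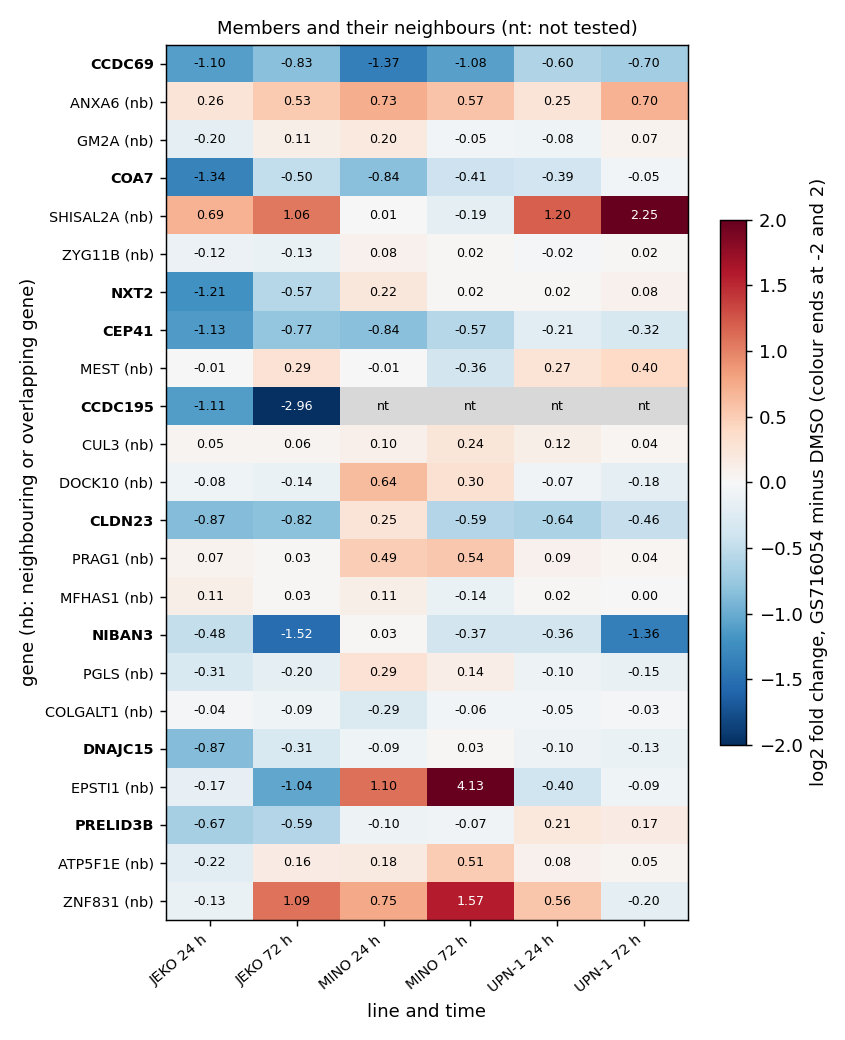
Log2 fold change (GS716054 minus DMSO) of each member (bold) and its tested neighbouring or overlapping genes in the 6 comparisons, with values printed in the cells. CCDC69 is negative and ANXA6 beside it positive throughout, and no neighbour was called lower in any comparison.

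Genes of the same complexes and families were taken from fixed lists, with the members left out: assembly of cytochrome c oxidase (24 genes, for COA7), the TIM23 import motor (11, for DNAJC15), mitochondrial lipid transfer and cardiolipin (11, for PRELID3B), nuclear mRNA export (20, for NXT2), tubulin glutamylation (19, for CEP41), claudins (23, for CLDN23) and the spindle midzone with cytokinesis (15, for CCDC69), and 7 paralogs. Over the 6 comparisons these gave 556 tested gene and comparison pairs, of which 1 was called lower and 2 higher. In MINO, where these calls lay, 2.39% of all genes were called in either direction at 24 h and 5.56% at 72 h. In the other comparisons 0.018% to 0.334% were. The 1 called lower was GRPEL1, the nucleotide exchange factor of the import motor, in MINO at 24 h (−0.62 ± 0.13 SE, adjusted p = 0.03). TPGS1, a subunit of a tubulin polyglutamylase, was called higher in MINO at 24 h (0.99 ± 0.185, 0.0198) and 72 h (0.77 ± 0.183, 0.029). These counts moved with single libraries. In MINO at 24 h the 2 calls fell to 0, or to 1 without treated replicate 1, and in MINO at 72 h the 1 call became 0 without DMSO replicate 1 or 3, 10 without DMSO replicate 2 and 2 without treated replicate 1. DESeq2 gave 6 and 7 calls there. The share of all genes called by DESeq2 or without single libraries is not given here.

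For cytochrome c oxidase assembly, the median log2 fold change in JEKO at 24 h was −0.114, against −1.34 for COA7 and −0.00621 over all genes tested. For mRNA export it was −0.0456 against −1.21 for NXT2, with NXT1, the close paralog, at 0.01 ± 0.184 (SE). The TIM23 motor stood at −0.489 in MINO at 24 h, where the median of all genes was 0.00508 and DNAJC15 was at −0.09. With the block, 5 of 11 genes of that list were called lower there (7.36% of genes) and 4 at 72 h, against 0 in JEKO and UPN-1 at both times. For the spindle midzone, 7 of 15 genes were called lower with the block in MINO at 72 h (9.8% of genes) and 7 of 15 in UPN-1 at 72 h (3.29%), with medians of −0.323 and −0.209. That list had 0 such calls in JEKO at both times and in UPN-1 at 24 h, and 1 in MINO at 24 h. None of these genes of the midzone list was called without the block.

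Paralogs were not called in any comparison by edgeR. At an unadjusted p under 0.05, 2 of 36 pairs were lower, and DESeq2 called PRELID3A in MINO at 72 h. The Niban genes NIBAN1 and NIBAN2 had log2 fold changes of −0.79 ± 0.572 (SE) and 0.26 ± 0.781 in JEKO at 72 h, where NIBAN3 was at −1.52. NIBAN1 was at 45.6, 7.11 and 55.3 CPM with DMSO there, and NIBAN2 held 2 to 24 reads per library. Neither estimate is precise enough to set against that of NIBAN3. PRELID3A was at −1.81 ± 0.599 in MINO at 72 h (adjusted p = 0.0957, and 0.00807 with the block), where PRELID3B was at −0.07. DNAJC19, the closest relative of DNAJC15 in the import motor, was at −0.29 ± 0.189 in JEKO at 24 h. Of the genes of the inhibitor's target family, only KDM5A, KDM5B and KDM5C were examined. None of them was called by edgeR or DESeq2 or had an unadjusted p under 0.05. With the block KDM5B was called higher in MINO at 24 h (0.85, adjusted p = 0.000252) and UPN-1 at 72 h (0.34, 0.00457).

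The genes most like each member were sought by Pearson's r of log2 CPM over the 36 libraries, after the mean of the 6 libraries of the same line and time was taken off. What is left holds the treatment difference and the scatter of replicates, shared by all genes of a library, so r is a description over 17971 other genes. ADNP2, a homeobox zinc finger gene, was most like both CCDC69 (r = 0.834) and COA7 (r = 0.791), with log2 fold changes from −0.76 to −0.20. DCAKD was most like CEP41 (r = 0.856), SUMO3 most like DNAJC15 (0.85) and IFI16 most like NIBAN3 (0.812). ENSG00000241207, which carries no symbol here, was most like NXT2 (0.887) and SSX5 most like PRELID3B (0.724), and both were tested in JEKO alone. COPDA1 was most like CCDC195 (0.742) and SNX24 most like CLDN23 (0.691).

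Among the members themselves, r ran from 0.285 to 0.83. It was highest between CCDC69 and CEP41 (0.83) and between COA7 and CEP41 (0.816), the genes that were lower in all 3 lines at 24 h. It was 0.708 between CCDC195 and NIBAN3, whose larger effects were at 72 h, and 0.725 between COA7 and DNAJC15. The lowest value was that of CCDC195 and CLDN23, both expressed mainly in JEKO. Their low counts in MINO and UPN-1 (0 to 10 reads of CCDC195 per library) add counting error to their r with any gene.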

How the data were processed

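The authors deposited 1 table of whole-number read counts per library, with 58302 Ensembl gene IDs and 5 summary lines. Per the submitters' processing notes, HISAT2 2.2.1, HTSeq 0.13.5 and GRCh38 were used. Strand use, annotation release and filters are not given in the sources used here. The summary lines were left out of library sizes and tests. They put 43.253% to 45.927% of reads in no feature and 1.979% to 2.595% in more than 1 gene. Of the IDs, 57532 matched GENCODE v44, which gave symbols and positions.

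Counts were fitted in R 4.3.3 with edgeR 4.0.16 (TMM, genes kept by filterByExpr at min.count 10 and min.total.count 15, quasi-likelihood F test, Benjamini-Hochberg adjustment), as 1 model of 12 libraries per line (16690, 15028 and 15248 genes in JEKO, MINO and UPN-1, 8 residual degrees of freedom) and 1 of all 36 libraries (17980 genes, 24 degrees of freedom). CPM used 1 TMM scale over all 36 libraries. Standard errors are the log2 difference divided by the square root of F. Limits from a count of 3 cover counting error only. The scripts were tested on simulated data.

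The members and gene lists were chosen with earlier results of these data known. Named by rule were the members, their neighbours, 7 paralogs, the KDM5 genes, up to 2 called genes per list, comparison and direction, and the gene most like each member. The labels call the replicates biological and do not say whether they were separate cultures, so p-values measure the spread between these samples. Same-numbered DMSO and treated libraries of 1 time deviated together (correlation over genes of the deviations from group means) with r of 0.107 to 0.595 in 5 of the 6 comparisons, and with r of 0.055 to 0.216 in JEKO at 24 h. After seeing the data, the numbers were taken as pairs in those 5, where every same-numbered pair reached 0.107 (the pairing criterion). That bound is the lowest r of the 5 comparisons kept, so it was set from these data. In JEKO at 24 h every same-numbered pair still lay above every pair of different numbers, which reached at most 0.032. For libraries of different numbers r was at most 0.33 in MINO at 72 h and at most 0.071 in the other comparisons. In MINO at 72 h that was above the 0.284 of same-numbered pair 3, so the numbers do not clearly set pairs apart there. Alternatives were DESeq2 1.42.0, edgeR with DESeq2's size factors, all genes with any count, only the 6 libraries compared, a replicate block, and leaving out single libraries.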

Additional observations from a re-analysis of the deposited data

Results flagged for a closer look

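NXT2 was singled out because its treatment effect differed between lines by a test of the difference itself. At 24 h the effects spanned 1.45 on the log2 scale among the 3 lines (adjusted p = 0.00312, edgeR quasi-likelihood test), and MINO minus JEKO was 1.45 (adjusted p = 0.00372). Without any 1 of the 18 libraries at 24 h, the adjusted p over the 3 lines stayed between 0.00373 and 0.0189. The gene was chosen on these contrasts, and its DMSO level in JEKO at 24 h was the highest of the 3 lines and fell with culture time. The part of that level in the difference was not tested.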

How the results depend on the processing

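Log2 fold changes of the called members kept their direction under every alternative run, and what moved was the number of calls. For alternatives other than the block within each time, the share of all genes called is not given here. Their counts do not tell a change in the members from a change over all genes. With DESeq2, 8 members in place of 2 were called lower in JEKO at 24 h and 2 in place of 1 in UPN-1 at 72 h. The effect differed among lines for 3 members at 24 h and 1 at 72 h and between times for 1 in JEKO, and 2 members were called with culture time in UPN-1. Its size factors in edgeR moved no count past 1.5 times. Without a low-count filter, 6 members were called lower in JEKO at 24 h and 2 in MINO at 72 h. UPN-1 then gave 1 at 24 h and 2 at 72 h. The effect then differed between times for 2 members in JEKO and 1 in UPN-1 and among lines at 72 h for 1, and culture time in UPN-1 gave 2. With only the 6 libraries compared, 4 JEKO members and 1 UPN-1 member were called lower at 24 h, against 1 in JEKO and 0 in UPN-1 at 72 h. These fits had fewer residual degrees of freedom at both times, and why the counts moved was not tested.

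With the replicate number as a block over both times, 4 members were called lower in JEKO at 24 h and 2 each in MINO and UPN-1 at 72 h, the effect differed among lines for 3 at 24 h and 2 at 72 h, and culture time in UPN-1 gave 3. The replicate block within each time was chosen after seeing the data. It gave 6 in JEKO at 24 h, where 0.0539% of genes were called lower and 1 pair fell short of the pairing criterion, 3 in MINO at 72 h, 3 in UPN-1 at each time, 1 for the effect between times in UPN-1, and 6 at 24 h and 3 at 72 h for a difference among lines (5.74% of genes at 24 h). The block changed no other count of member calls by over 1.5 times.

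Leaving out single libraries gave 0 to 0 members called lower in JEKO at 24 h and 2 to 3 at 72 h, 1 to 1 in MINO at 24 h and 1 to 2 at 72 h (2 without DMSO replicate 2), and 0 to 1 in UPN-1 at 72 h (0 without DMSO replicate 1 or treated replicates 2 or 3). CCDC195 and NIBAN3 in JEKO at 72 h, and CCDC69 in MINO at both times, kept their calls without any 1 library. A difference among lines was called for 1 to 2 members at 24 h (2 without treated JEKO replicate 3) and 0 to 1 at 72 h (1 without JEKO DMSO replicate 1, treated MINO replicate 2 or UPN-1 DMSO replicate 3). The mean over lines gave 3 to 4 and 3 to 5. Culture time gave 3 to 5 in JEKO (3 without DMSO replicate 2 or 3 at 24 h or replicate 2 at 72 h) and 0 to 4 in UPN-1 (4 without DMSO replicate 3 at 72 h). Baselines gave 6 to 7, 7 to 9 and, for UPN-1 against MINO, 4 to 6 (4 without MINO replicate 1 or 3). The cause was not tested. Counts limit CLDN23 outside JEKO and CCDC195 everywhere but JEKO.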
